A study of Mus musculus with 4 samples.

Results

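The loci of 5 ligands of the epidermal growth factor (EGF) family, Epgn, Ereg, Areg, Btc and Tgfa, were examined for binding sites of Gata6, a zinc-finger transcription factor of the GATA family, in primary mouse keratinocytes. Sites were taken from the deposited list of Gata6 ChIP-seq peaks on mouse build mm9. A peak was a member if its midpoint lay in chr5:91000001-92000000, the Epgn-Ereg-Areg-Btc window, or in chr6:86000001-86400000, the Tgfa window. This gave 46 peaks, 0.379% of the list: 32 of the 799 on chromosome 5 and 14 of the 920 on chromosome 6, with 10418 more on the other chromosomes. Both windows were chosen by their number of listed peaks, which was known to be high, so their counts are given as a description and without a test.

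The keratinocytes came from dorsal skin of C57BL6/CBA mice with the K14deltaNLef1 transgene, in which the keratin 14 promoter directs an N-terminally truncated Lef1 to basal epidermal cells. All 4 libraries came from cells infected with a lentivirus to overexpress Gata6: 2 were precipitated with Gata6 antibodies from different vendors, 1 with a Flag antibody as negative control, and 1 was input DNA. One of the Gata6 libraries is labelled K14deltaNLef1N, which was taken as the same genotype. The cells were grown over irradiated 3T3-J2 feeder cells, which are mouse fibroblasts, in a medium that contained EGF itself. Libraries from cells without added Gata6 were not analysed here. The list holds 1 set of intervals for the series and no value per library, so the antibodies and controls could not be compared at any locus. Sequencing depth per library is unknown from it, as is the height of each peak, and the cell type label could not be checked against marker genes.

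EGF-family ligands are made as membrane-anchored precursors, released by metalloproteases such as Adam17, and bind the receptor Egfr, which then signals alone or with other ErbB receptors. Tgfa, Areg, Epgn, Ereg and Btc all bind Egfr, and Btc and Ereg also bind Erbb4. In epidermis such ligands act on the keratinocytes that make them and promote proliferation and migration, and loss of Tgfa in mice gives wavy hair and whiskers. Epgn, Ereg, Areg and Btc are neighbours on chromosome 5: among coding genes, the RefSeq table of build GRCm38.p6 gives the order Cxcl1, Cxcl2, Mthfd2l, Epgn, Ereg, Areg, Btc, Parm1. Tgfa stands between Add2 and Fam136a on chromosome 6 in the same table.

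The promoters of the ligands are shown first, since they are the regulatory sequences of the members for which letters were at hand. RefSeq promoter entries of build GRCm38.p6, running from 250 bases before to 50 after a gene's start, matched 4 of the 5 ligands: Epgn, Areg, Btc and Tgfa, but not Ereg. Capitals mark the letters searched on both strands, GATA with A or T before it and A or G after it (that is AGATAA, the form AGATAG, the form TGATAA and lastly TGATAG), and each sequence is on its gene's strand. These positions belong to another build than the peaks and were not converted, so whether a peak covers a promoter was not determined. The letters under the peaks themselves were not read, for want of an mm9 genome.
Epgn, chr5:91027267-91027566, plus strand: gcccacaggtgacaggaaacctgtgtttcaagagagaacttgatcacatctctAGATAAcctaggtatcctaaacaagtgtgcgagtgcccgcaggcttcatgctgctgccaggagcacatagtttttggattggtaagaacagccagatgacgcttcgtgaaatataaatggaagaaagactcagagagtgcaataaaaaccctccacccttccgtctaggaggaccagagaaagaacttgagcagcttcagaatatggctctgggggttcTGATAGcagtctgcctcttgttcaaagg
Areg, chr5:91139349-91139648, plus strand: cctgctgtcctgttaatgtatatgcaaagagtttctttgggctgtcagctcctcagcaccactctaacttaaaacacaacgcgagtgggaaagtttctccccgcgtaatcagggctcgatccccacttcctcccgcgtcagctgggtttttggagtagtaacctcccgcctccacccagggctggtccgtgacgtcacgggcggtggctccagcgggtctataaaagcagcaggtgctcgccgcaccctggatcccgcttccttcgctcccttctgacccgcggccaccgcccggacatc
Btc, chr5:91402945-91403244, minus strand: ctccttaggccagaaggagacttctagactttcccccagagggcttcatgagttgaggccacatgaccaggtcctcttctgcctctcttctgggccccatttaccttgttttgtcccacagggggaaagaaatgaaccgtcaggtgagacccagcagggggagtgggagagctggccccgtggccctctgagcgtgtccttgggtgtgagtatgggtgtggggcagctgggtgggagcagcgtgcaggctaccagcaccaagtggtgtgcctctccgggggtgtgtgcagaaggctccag
Tgfa, chr6:86194972-86195271, plus strand: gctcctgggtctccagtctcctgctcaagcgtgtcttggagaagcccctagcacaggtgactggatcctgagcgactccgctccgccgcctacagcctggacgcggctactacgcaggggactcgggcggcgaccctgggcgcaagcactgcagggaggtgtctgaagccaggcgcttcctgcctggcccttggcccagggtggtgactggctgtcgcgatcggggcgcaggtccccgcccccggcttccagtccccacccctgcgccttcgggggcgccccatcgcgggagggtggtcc

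The promoter of Epgn, which encodes epigen, held 2 such matches, both on the gene's own strand: AGATAA with its first base 197 bases before the start, and TGATAG with its first base at position 23 counted from the start as 1. The promoters of Areg (amphiregulin), Btc (betacellulin) and Tgfa (transforming growth factor alpha) held none, and none of them held the shorter letters GATA on either strand. Of 32851 promoters in the table, 29.8% held at least 1 match and 7.77% held 2 or more. Over a list of 18 genes of the pathway, with ligands, ErbB receptors, the proteases Adam10 and Adam17 and the feedback inhibitor Errfi1, 13 had a promoter entry and 4 of these held a match: Egf, Epgn, Errfi1 and Nrg4. This count lies close to the 33.0% of all 27025 genes in the table. The 4 ligand promoters also differed in composition. Areg and Tgfa were rich in CpG dinucleotides, with 21 and 24 in 300 bases and a GC content of 59.3% and 70.7%. Epgn and Btc each had 5 CpG dinucleotides, below the median of 7 over all promoters, with a GC content of 47.3% and 60.3% against a median of 52.7%.

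The chromosome 5 window was the fullest of that chromosome. It held 32 peaks, against a median of 4 (interquartile range 0 to 8) over the 148 complete 1-Mb windows of chromosome 5. The next fullest windows there held 29 and 24 peaks. In all, 4.01% of the peaks of chromosome 5 lay in the window, and together they covered 4117 bp. The Tgfa window held 14 peaks, against a median of 1 (interquartile range 0 to 4) over 361 complete windows of 0.4 Mb on chromosome 6. There, 4 windows held more, up to 17, and 1 other window also held 14.

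**Figure D1:**
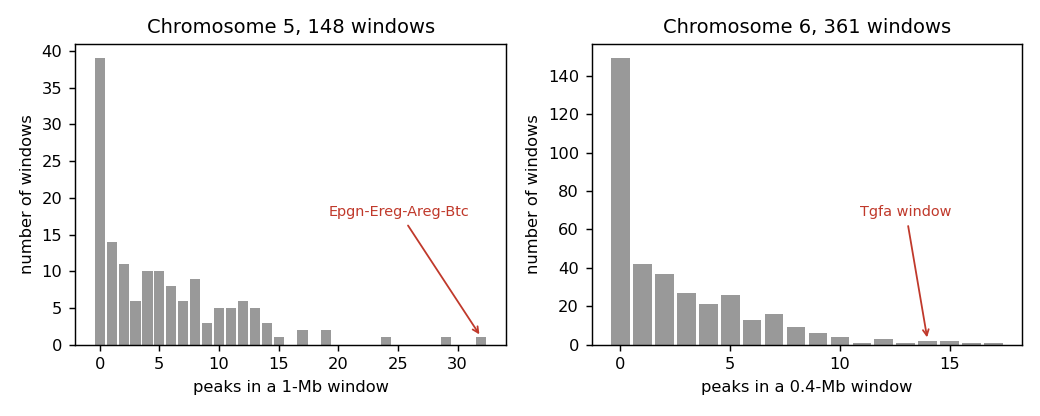
Number of windows (y axis) by the number of Gata6 peaks they hold (x axis), for 148 windows of 1 Mb on chromosome 5 and 361 windows of 0.4 Mb on chromosome 6. The Epgn-Ereg-Areg-Btc window, with 32 peaks, is the rightmost of chromosome 5, and the Tgfa window, with 14, lies near the right end of chromosome 6.

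The left edge of the chromosome 5 group was abrupt. No peak was listed in the 1-Mb window before it, and the last peak before its first member lay 1.89 Mb away, at chr5:89153283-89153429 (name number 69). To the right, peaks went on at lower density, with 8 and 6 in the following 1-Mb windows. The first peak outside on that side, at chr5:92011017-92011161 (name number 692, 145 bp wide), lay 15.4 kb from the last member, at chr5:91995654-91995754 (name number 1041, 101 bp wide). Around the Tgfa window the nearest peaks outside were 105 kb to the left of its first member (name number 516) and 121 kb to the right of its last (name number 1414). The neighbouring 0.4-Mb windows held 3 peaks on the left and 11 on the right.

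The name number is the whole number that the deposited name of each peak joins to its chromosome. Its meaning is not stated in the labels or the list. Over the whole list, peaks in the lowest 10% of their chromosome's numbers had a median width of 154 bp, against 131 bp in the highest 10%. Numbers were compared as percentiles among the listed numbers of the same chromosome, with 0 the lowest and a median of 50 by construction. Gene positions are approximate mm9 positions to 10 kb that were given with the choice of the loci. Each distance to a position thus carries a rounding error of up to 5 kb. On chromosome 5 the distance to a gene or its start can differ by more, since the part of the gene that a position marks is not given. The positions do not hold exons, introns or, except for Tgfa, the 2 ends of a gene.

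Of the 4 ligand positions on chromosome 5, that of Epgn, near 91.46 Mb, had the closest peaks. This ranks positions and not gene starts, and the start of Btc may lie closer to a peak than its position does. A peak at chr5:91456308-91456425 (name number 393, 118 bp wide) lay 3.63 kb to the left of the Epgn position. A pair of peaks lay to its right, chr5:91466166-91466316 at 6.24 kb (name number 150, 151 bp wide) and chr5:91467782-91467913 at 7.85 kb (name number 502, 132 bp wide). The members of this pair were 1.61 kb apart, and the left one had the lowest number of the 3, at percentile 17.2 of the chromosome. No other peak lay within 50 kb of the Epgn position.

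Ereg, near 91.5 Mb, encodes epiregulin, and Areg, near 91.57 Mb, encodes amphiregulin. Between their positions lay 5 peaks, 7.14 per 100 kb, the highest rate of the 5 intervals that the ligand positions cut from the window. The peak closest to Ereg, 12.3 kb to its right, was chr5:91512289-91512368, which at 80 bp was one of the 2 members of 83 bp or less. A pair 1.20 kb apart followed at chr5:91526200-91526335 (name number 195) and chr5:91527384-91527546 (name number 340). The lowest number of this interval belonged to chr5:91539174-91539305 (name number 66, percentile 8.15), which lay 30.8 kb to the left of Areg. The peak closest to Areg, 17.4 kb to its left, was chr5:91552553-91552710 (name number 365, 158 bp wide). No peak was listed for the next 93.6 kb to the right, a stretch that includes the Areg position.

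Btc, near 91.79 Mb, encodes betacellulin and had no peak within 20 kb of its position. The nearest lay 39.7 kb to the right, at chr5:91829635-91829769 (name number 549, 135 bp wide). These distances hold for the position only. Btc is on the minus strand in the RefSeq table, so its start is its right end. In build GRCm38.p6 the promoter entries of Areg and Btc, at 91139349-91139648 and 91402945-91403244, stand farther apart than the 220 kb between their mm9 positions. If the spacing is alike in both builds and the Areg position is its start, the Btc start lies to the right of the Btc position. That is the side of this peak, so the start may lie closer to it than 39.7 kb. The distance from the peak to the Btc start was not determined. Between the positions of Areg and Btc, 5 peaks lay at 2.27 per 100 kb. The rightmost of them, chr5:91732080-91732244 (name number 111), was at 165 bp the widest peak of the window. The narrowest member of the window also lay in this interval, at chr5:91646204-91646213, with 10 bp (name number 757). To the right of Btc there were 2 peaks in 210 kb, 0.952 per 100 kb, and the longest stretch without a peak in the window, 166 kb from midpoint to midpoint, ran from 91829770 to 91995653.

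Most peaks of the window lay outside the stretch between the Epgn and Btc positions: 18 of the 32 were to the left of Epgn and 2 to the right of Btc. The rate to the left of Epgn was 3.91 per 100 kb. It was 5 from Epgn to Ereg, 7.14 from Ereg to Areg and 2.27 from Areg to Btc. All but 1 of the 18 peaks to the left were over 50 kb from the Epgn position. In the gene table the coding genes on that side of Epgn are Mthfd2l, an enzyme of mitochondrial folate metabolism, and the chemokine genes Cxcl2 and Cxcl1. Which of the peaks lie in or near these genes was not determined. The 6 leftmost peaks, from 91041229 to 91128711, had name numbers 72, 84, 138, 44, 42 and 73 in order of position. Among these were the 2 lowest numbers of the whole window, 42 and 44, on neighbouring peaks 2.82 kb apart at chr5:91120637-91120798 and chr5:91123474-91123607. Of the 5 members in the lowest 10% of the chromosome's numbers, 4 were in this group, over 330 kb from Epgn, and the other was the peak numbered 66 between Ereg and Areg. The only group of 3 peaks each within 5 kb of the next, chr5:91187329-91191181, had high numbers instead: 546, 1213 and 915. The highest number of the window, 1703 (percentile 94.1), was at chr5:91291907-91292059.

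At Tgfa, whose approximate span runs from 86.15 to 86.23 Mb, 3 peaks lay inside the span. A pair 0.798 kb apart, the closest of all 46 members, stood at chr6:86168815-86168953 (name number 270, 139 bp wide) and chr6:86169599-86169764 (name number 44, 166 bp wide). The third was chr6:86208313-86208456 (name number 148, 144 bp wide). A further pair, chr6:86130767-86130898 (name number 140) and chr6:86132669-86132825 (name number 133), lay 19.2 and 17.3 kb to the left of the span. All 5 of these peaks were in the lower part of the chromosome's numbers, from percentile 4.68 to 27.2. The peak numbered 44, at 166 bp, had the largest width of the list, which it shared with other peaks, such as number 1 of chromosome 6.

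To the left of Tgfa stood 3 other pairs. The outermost, 125 and 123 kb from the span, consisted of chr6:86024975-86025117 (name number 2, 143 bp wide) and chr6:86026626-86026753 (name number 190, 128 bp wide). Number 2 was the second lowest of the 920 listed on chromosome 6. In the next pair, 69.96 and 68.94 kb from the span, the peaks chr6:86079973-86080115 and chr6:86080998-86081121 had the 2 highest numbers of the window, 808 and 732. The narrowest member, with 124 bp, was the right one of this pair. The last pair, chr6:86098609-86098742 and chr6:86100213-86100338, had nearly equal numbers, 191 and 196. To the right of Tgfa were 3 peaks in 170 kb, with name numbers 245, 381 and 563 and no neighbour within 5 kb. The longest distance between consecutive members was 60.7 kb, from 86208457 to 86269017, and includes the right end of the span. The last 83.7 kb of the window held no peak.

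**Figure D2:**
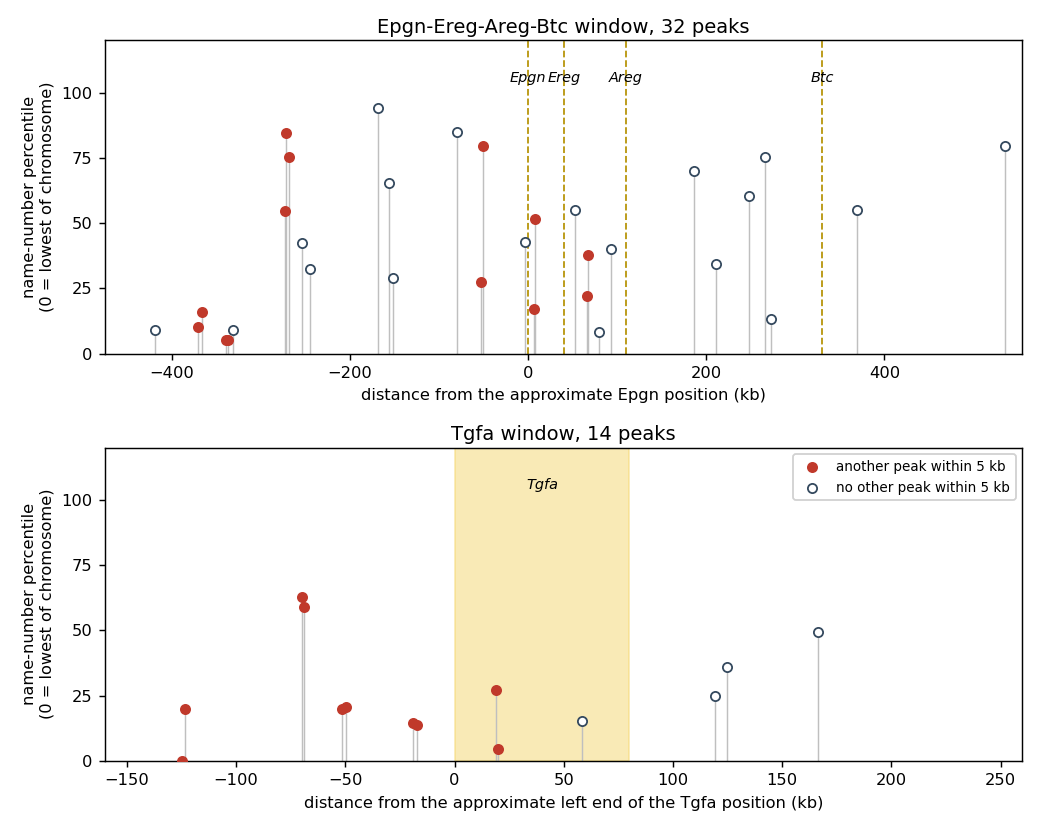
Each point is 1 Gata6 peak, by its distance in kb from the approximate Epgn position (top, 32 peaks) or from the left end of the approximate Tgfa span (bottom, 14 peaks) and by the percentile of its name number among the listed numbers of its chromosome. Filled points have another peak within 5 kb, dashed lines and the shaded band mark ligand positions, and all 10 filled points of the Tgfa panel stand in 5 pairs, 4 to the left of the span and 1 inside it.

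The closeness of peaks to the ligand positions was set beside that to other points. On chromosome 5, 3 of the 4 ligand positions had a peak within 20 kb, with Btc, whose start may lie closer to a peak than its position does, as the exception. Of points set 10 kb apart over the chromosome, 14.8% had one, but 62.4% of those inside the window did, so 3 of 4 is near the share of the window as a whole. Within 10 kb, 1 of the 4 positions, that of Epgn, had a peak, against 8.46% of points over the chromosome and 40.6% in the window. Whether the Btc start has a peak within 10 kb was not determined. The Tgfa span had 5 peaks inside it or within 20 kb. As many were reached by 3.11% of 80-kb stretches over chromosome 6 and by 51.5% of those inside the Tgfa window. Over both windows, 10 of the 46 members were within 20 kb of a ligand position.

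The Tgfa peaks were paired. Of its 14 peaks, 10 had another peak within 5 kb (71.4%, 95% Wilson interval 45.4 to 88.3), against 23.2% of all listed peaks and 24.6% of the chromosome 6 peaks outside the window. The same 10 peaks had a neighbour within 2 kb, against 12.7% of all listed peaks. They formed 5 pairs with 0.798 to 1.91 kb between midpoints. Since the window was chosen for its number of peaks, it was set beside the 153 windows of 0.4 Mb, on all chromosomes, with 10 or more peaks. Among these the share with a neighbour within 5 kb had a median of 37.5%, 5 windows were above the Tgfa window and 3 others equalled it. The share with a neighbour within 2 kb, a distance chosen after the values were seen, had a median of 18.2%. No window was above the 71.4% of Tgfa, but windows of chromosomes 16 and 1 came close, at 70% and 66.7%. The intervals cover counting error only and take peaks as independent, which peaks of a pair are not.

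In the Epgn-Ereg-Areg-Btc window 13 of 32 peaks had a neighbour within 5 kb (40.6%, 95% Wilson interval 25.5 to 57.7), against 24.9% of the chromosome 5 peaks outside it. They formed 5 pairs and the group of 3. Within 2 kb the share was 18.8%, 6 peaks, and within 1 kb there was none. In 53 windows of 1 Mb with 20 or more peaks the median share within 5 kb was 34.8%, and 15 of these windows were above the ligand window. Its median distance between consecutive peaks was 13.9 kb, shorter than in all but 3 of the 53. However, the window also held more peaks than all but 1 of them. Spacing in a window of fixed size follows in part from the count by which this window was chosen. In the Tgfa window, with its tight pairs, the median distance between consecutive peaks was 17.6 kb, above the median of 14.9 kb in the 153 windows.

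**Figure D3:**
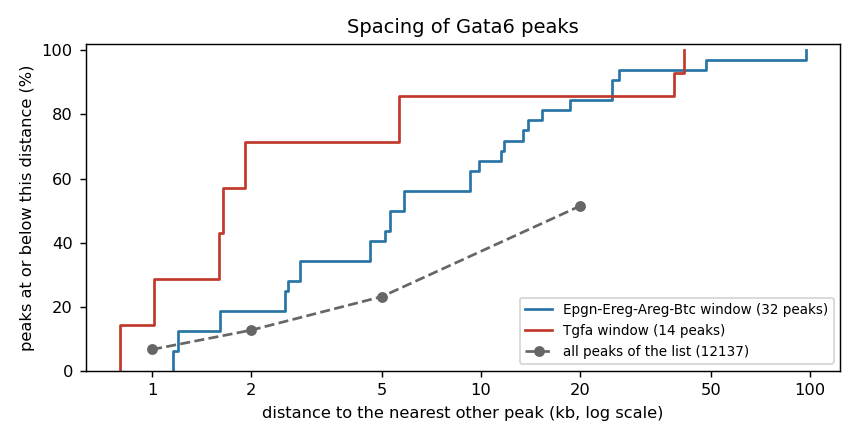
Cumulative percentage of peaks (y axis) by distance in kb to the nearest other peak (x axis, log scale), for the 32 and 14 peaks of the ligand windows as lines and for all listed peaks at 1, 2, 5 and 20 kb as points. The Tgfa line reaches 71.4% before 2 kb, where the whole list is at 12.7%, and the Epgn-Ereg-Areg-Btc line reaches 40.6% by 5 kb.

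The peaks of the Tgfa window had low name numbers. The numbers were 2, 44, 133, 140, 148, 190, 191, 196, 245, 270, 381, 563, 732 and 808, on a chromosome whose highest listed number is 3351. Their median percentile was 20.2 (order-statistic 95% interval 13.8 to 49.3). This interval takes the peaks as independent, which peaks of a pair are not, so it was not used as a test. As many as 9 of the 14 were in the lowest 25% of the numbers of chromosome 6, and 0 were in the highest 25%. The lowest 10% included 2 of them (14.3%, 95% Wilson interval 4.01 to 39.9), against 10.1% of all listed peaks, and 31 of the 153 windows with 10 or more peaks held more than 2 such peaks. In those 153 windows the median percentile ran from 11.2 to 78.1, with a median of 44.96, and 3 windows were below the Tgfa window. Among the 15 such windows of chromosome 6 it was the lowest. Over the whole list, the median percentile was 44.6 for peaks with a neighbour within 5 kb and 51.8 for the others. In the Tgfa window it was 19.9 for the 10 peaks with such a neighbour and 30.3 for the 4 without, whose percentiles were 15.3, 24.7, 35.8 and 49.3.

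Name numbers in the Epgn-Ereg-Areg-Btc window were spread over much of the range of the chromosome. They ran from 42 to 1703, with a median percentile of 41.4, against 50.3 for the chromosome 5 peaks outside the window. The order-statistic 95% interval, 21.9 to 60.3, takes the peaks as independent, and peaks of 1 window are not replicates, so it was not used as a test. Of the 53 windows with 20 or more peaks, 18 had a lower median. The window held 10 of the 180 listed peaks of chromosome 5 numbered up to 200 (5.56%), beside 4.01% of all peaks of the chromosome. The lowest 10% of the numbers included 5 members (15.6%, 95% Wilson interval 6.86 to 31.8), beside 10.1% of all listed peaks. Only 3 of the 53 windows held more than 5 such peaks, but the window also has more peaks than all but 1 of them. Along the window the numbers were not even: the median percentile was 37.5 to the left of Epgn, 34.3 between Epgn and Ereg, 37.8 between Ereg and Areg, 60.3 between Areg and Btc and 67.3 to the right of Btc. These values rest on 18, 2, 5, 5 and 2 peaks.

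**Figure D4:**
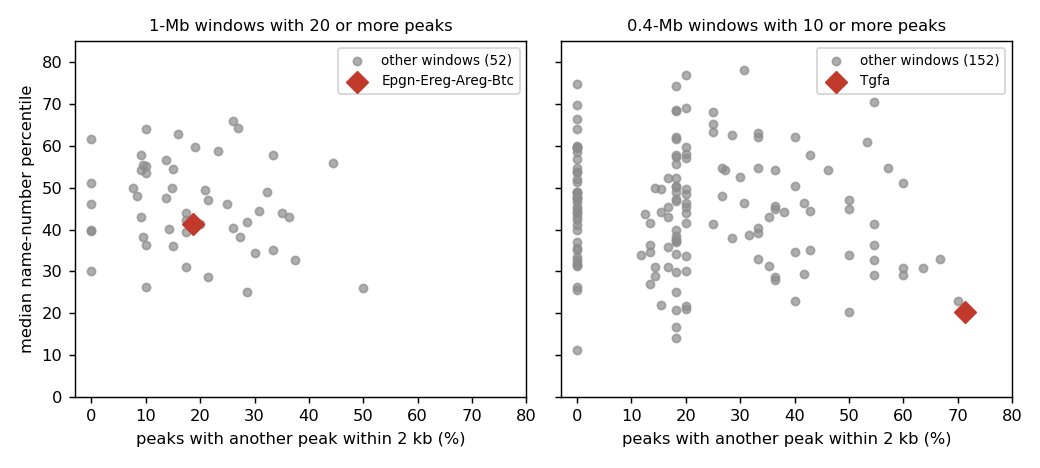
Each point is 1 window, by the percentage of its peaks with another peak within 2 kb (x axis) and the median percentile of its name numbers (y axis), for 53 windows of 1 Mb with 20 or more peaks (left) and 153 windows of 0.4 Mb with 10 or more peaks (right). The Epgn-Ereg-Areg-Btc window lies among the others at 18.8% and 41.4, and the Tgfa window is the rightmost point of its panel at 71.4% and 20.2.

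Listed widths were set beside those of the same windows. The median width was 141 bp in the Tgfa window, from 124 to 166 bp, and 0 of its 14 peaks were 83 bp or narrower, against 9.11% of all listed peaks. At a share of 9.11% few such peaks would be found among 14 in any case, and 55 other windows of the 153 also held none. In the Epgn-Ereg-Areg-Btc window the median was 134.5 bp (interquartile range 113 to 151.5 bp), against 144 bp for the peaks of chromosome 5 outside it, and 6 of the 53 dense windows had a lower median. Of its members, 2 (6.25%) were 83 bp or narrower. These widths are those of intervals in an overlap list and do not hold the extent of a binding site.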

How the data were processed

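The series has 4 libraries: 2 Gata6 ChIP libraries, 1 Flag ChIP and 1 input. The authors deposited 1 overlap list of peaks on mm9. The submitters' processing notes name BWA and HOMER without versions. For peak calling settings, the lists intersected and the use of the controls, nothing is given in the sources used here. The deposited score is 0 in all 12137 rows and was not used. Starts were shifted to 1-based positions.

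Members, lists and windows were chosen with earlier results of these data known. Peaks were assigned by midpoint and compared with complete windows between the first and last peak of a chromosome, on a grid from 0. A neighbour is a peak with its midpoint within 5 kb. No test was run, since the list holds no replicate values and the windows were chosen for their peaks. The measures were tested on simulated data. Peaks named are those within 20 kb of a ligand position, groups of 3 or more within 5 kb, the lowest number, widest and narrowest peak and longest stretch between members of each window. Others were named after their values were seen. Python 3.11.15, NumPy 2.4.6, pandas 2.3.3, SciPy 1.17.1 and matplotlib 3.10.9 were used. Alternatives changed the distances, the peaks counted, the grid and the scale of the numbers. Ligand proteins were not analysed here.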

Additional observations from a re-analysis of the deposited data

How the results depend on the processing

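Leaving out a library was not run, because the peak list has no column for any of them. No paired analysis was possible because the result comes from no test. Of 31 alternative values, 20 stayed within 1.5 times the count or inside the interval of the value reported, and 11 moved. Peak counts of both windows were among those that stayed (30 to 32 and 13 to 14). The intervals are wide (45.4 to 88.3% for the Tgfa share within 5 kb) and take peaks as independent. Staying inside one therefore says little about stability. Leaving out peaks of 83 bp or less could not change the count of the Tgfa window, which has no such peak. With the grid shifted by 0.5 Mb, which splits the chromosome 5 group, the window with most ligand positions held 16 peaks and ranked 11 on its chromosome, while the other window over the group held 20 and ranked 1. The rank of the Tgfa window, 5, became 3 (14 peaks) in the other overlapping window of the shifted grid and 3 with peaks wider than 83 bp only. Several other alternatives change a value by construction. In the Epgn-Ereg-Areg-Btc window the share of peaks with a neighbour was 0% within 1 kb (all listed peaks 6.66%), 18.8% within 2 kb (12.7%) and 84.4% within 20 kb (51.4%). In the Tgfa window it was 14.3% within 1 kb. As a percentage of the highest number of the chromosome, the median name number was 15.6 (chromosome 5 as a whole 19.96) and 5.77 (chromosome 6 as a whole 17.0). Peaks near a ligand position numbered 6 within 10 kb and 17 within 50 kb, against 10 within 20 kb. The 2-kb distance, the ranks for wider or merged peaks and the other overlapping window were chosen after seeing the data. How far sequencing depth shaped the list of sites could not be measured.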
